A study of Mus musculus and Homo sapiens with 47 samples.

Results

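The genes described here are 40 mouse genes of DNA replication and cell division, 19 that act in S phase and 21 that act in mitosis, out of 24014 genes in the mouse count table. They were taken from a list of names, drawn up with earlier results of these data known, and no measured value enters the rule. All 40 were present in the bulk counts and in the single-cell matrices, and all 40 passed the filter on low counts.

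RNA was measured in sorted intestinal stem cells of mice on a B6;129 mixed background with the genotype Eed F/F; Lgr5EGFP-IRES-CreERT. Eed is a core subunit of Polycomb repressive complex 2, which deposits the silencing mark H3K27me3, and tamoxifen activates a Cre that is expressed with GFP from the stem cell gene Lgr5. Mice received tamoxifen on 5 consecutive days and on alternate days afterwards, and the epithelium of the proximal intestine was dissociated and its GFP+ cells collected by flow cytometry. Bulk libraries were labelled day 9 (3 libraries), day 14 (2), day 21 (2) and day 30 (1), and 1 droplet-based library each was labelled day 7, day 12 and day 16. Every library carried the same genotype and tamoxifen schedule, so later days may come with more doses, which cannot be told apart from day. The age of the adult mice and the event from which days run are not stated in the labels. No wild-type bulk RNA was analysed here, so day 9 served as the baseline. The Cre is confined to Lgr5-expressing cells, whose descendants inherit a deletion made there, and the sort takes whatever cells still hold GFP. In bulk RNA, fewer cells of a type and less RNA per cell cannot be told apart. Another sample labelled day 30 is not used here.

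DNA replication is licensed when origin proteins such as CDC6 and CDT1 load the MCM helicase, made of MCM2 to MCM7, and it is carried out by a machinery that the PCNA clamp holds on DNA. Genes of this phase are driven by E2F factors, which the retinoblastoma protein and its relatives restrain. Genes of mitosis peak later in the cycle and are classically controlled through 2 promoter elements, the CHR and the CCAAT box, by the DREAM and MMB complexes and NF-Y. Crypt base stem cells of the intestine divide often, so both programmes are normally active in them.

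The promoters of both groups were read first, because the sequences divide the genes in a way that the choice by name did not use. RefSeq windows of GRCm38.p6, from 250 bases before to 50 after a transcript start, were matched for 16 S-phase and 18 mitotic members. No window was matched for Ccne2, Gins2, Mcm4, Tpx2, Ccna2 and Aurkb. Both strands were searched for an E2F motif, which was TTTCCCGC in one form, TTTCGCGC in another, and also TTTGCCGC as well as TTTGGCGC. They were also searched for a CHR, spelled TTTGAA, and for the CCAAT box itself. An E2F word can overlap one on the other strand or a CCAAT box, as in Mcm6 and Mcm7, and such matches run together. The stretches below run from 170 bases before to 30 after the transcript start of the window, 5′ to 3′ on the strand of the gene, with every match in capitals. For Cdc6 and Mcm7 that start lies downstream of the outermost start of the gene in RefSeq, so these stretches lie inside the annotated gene. Mcm7 (chr5:138171854-138172053, minus strand), Mcm6 (chr1:128359676-128359875, minus strand) and Cdc6 (chr11:98907981-98908180, plus strand) are shown because they carry the E2F motif. On the opposite strand a CCAAT box reads as ATTGG here.
Mcm7: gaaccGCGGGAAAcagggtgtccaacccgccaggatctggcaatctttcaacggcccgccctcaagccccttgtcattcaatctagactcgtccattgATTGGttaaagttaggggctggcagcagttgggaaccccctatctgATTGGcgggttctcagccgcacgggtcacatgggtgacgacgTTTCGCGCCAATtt
Mcm6: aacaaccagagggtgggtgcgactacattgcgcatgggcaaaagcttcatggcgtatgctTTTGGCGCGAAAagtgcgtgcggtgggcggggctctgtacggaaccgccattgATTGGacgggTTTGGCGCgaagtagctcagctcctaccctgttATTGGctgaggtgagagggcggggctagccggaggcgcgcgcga
Cdc6: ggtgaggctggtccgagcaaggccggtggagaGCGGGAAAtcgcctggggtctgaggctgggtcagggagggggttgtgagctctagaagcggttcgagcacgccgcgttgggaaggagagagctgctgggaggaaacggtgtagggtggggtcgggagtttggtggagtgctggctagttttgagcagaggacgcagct
Ube2c (chr2:164769759-164769958, plus strand) and Top2a (chr11:99024160-99024359, minus strand) are shown for the CHR beside CCAAT boxes. Cdk1 (chr10:69352883-69353082, minus strand) is shown because its stretch holds all 3 motifs.
Ube2c: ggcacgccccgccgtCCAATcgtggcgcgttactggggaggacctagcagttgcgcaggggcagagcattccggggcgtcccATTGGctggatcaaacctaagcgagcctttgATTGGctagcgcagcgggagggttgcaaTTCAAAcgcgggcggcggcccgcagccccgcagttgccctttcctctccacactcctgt
Top2a: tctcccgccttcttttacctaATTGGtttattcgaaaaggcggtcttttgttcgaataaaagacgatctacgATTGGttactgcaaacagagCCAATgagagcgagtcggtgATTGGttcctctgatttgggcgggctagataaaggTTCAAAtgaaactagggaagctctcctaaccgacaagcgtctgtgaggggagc
Cdk1: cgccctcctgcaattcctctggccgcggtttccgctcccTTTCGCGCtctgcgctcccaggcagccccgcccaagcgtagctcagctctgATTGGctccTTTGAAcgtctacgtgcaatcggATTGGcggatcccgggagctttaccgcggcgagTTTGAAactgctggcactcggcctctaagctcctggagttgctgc

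An E2F motif lay in the windows of 8 of 16 S-phase members (50.0%) and 1 of 18 mitotic members (5.56%), against 2.60% of 27025 genes with a window. The S-phase carriers were Cdc6, Cdt1, E2f2, Mcm3, Mcm5, Mcm6, Mcm7 and Uhrf1, and the mitotic one was Cdk1, the kinase that starts mitosis. A CHR lay in 2 of 16 S-phase members (12.5%) and 14 of 18 mitotic members (77.8%), against 20.2% of genes. In 13 of those 14 mitotic genes the match nearest the start was within 50 bases of it. The exception was Mki67, where it began 98 bases before the start of the window's transcript. That start lies downstream of the outermost RefSeq start of Mki67, so the distance depends on the start used. A CCAAT box lay in 10 of 16 S-phase members (62.5%) and 16 of 18 mitotic members (88.9%), against 41.1% of genes. All 14 mitotic genes with a CHR also held a CCAAT box, a pair found in 7.97% of genes. A match is only a run of letters and not a shown binding site. Mcm2, Pcna, Rrm1, Rrm2, Tyms, Tk1, E2f1 and Ccne1 held none of the 4 E2F words in these windows. The E2f1 window lay wholly inside the annotated gene, as did those of Cdc6 and Aurka. Bases before the outermost start of these genes were thus not searched.

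Before the comparisons, the libraries were set side by side. Totals were 21328684 to 27900351 counts, and the 40 genes made up 0.443% to 0.777% of them. The day 14 libraries stood apart: 14988 and 13707 genes were detected in them, against 16163 to 16952 in the other 6. In all, 51.1% of 14692 tested genes were called between day 14 and day 9, at an adjusted p under 0.05 in edgeR's quasi-likelihood test. The changes at day 14 also followed genomic length, with a median log2 fold change of 0.18 in the shortest of 4 equal groups of genes (up to 9249 bases) and -0.37 in the longest (52265 bases and over). Levels are given as CPM, each count scaled to the effective size of its library. Eed itself had 86.1 and 81.5 CPM in the day 14 libraries, 34.2 and 38.7 CPM in those of day 21 and 38.2 CPM in that of day 30, against 46.1, 39.6 and 46.3 CPM in those of day 9. Whole-gene counts cannot separate reads of the deleted part from the rest, so they do not check the deletion. Stem cell markers summed to 9119 to 9183 CPM on day 14, 7350 to 7673 CPM on day 21 and 11697 CPM on day 30, against 10420 to 11852 CPM on day 9, and Paneth cell markers to 18265 to 19386, 2300 to 12737 and 1545 CPM, against 14846 to 27217 CPM. The cells were thus labelled stem cells by their sort, with RNA of differentiated epithelium present in every library.

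**Figure D1:**
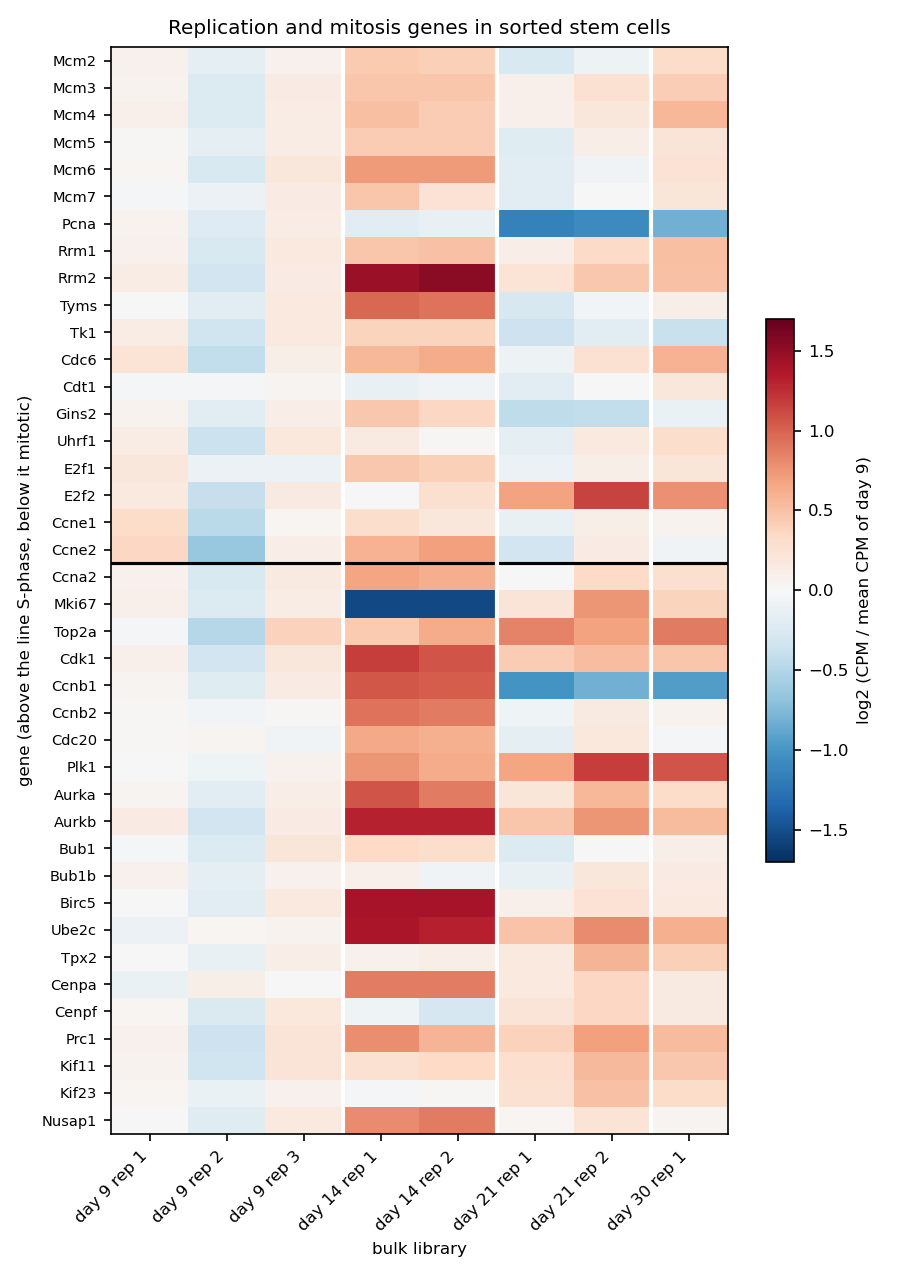
Each row is a gene and each column a bulk library, coloured by the log2 ratio of its CPM to the mean CPM of the 3 day 9 libraries; red is higher and blue lower. The day 14 columns are red for most genes in both groups, with Mki67 the darkest blue, while Pcna and Ccnb1 are blue at day 21 and day 30.

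At day 14 against day 9, both programmes stood higher. Of 19 S-phase members 12 rose and none fell, and of 21 mitotic members 13 rose and 1 fell, in a comparison where 25.4% of all tested genes were called higher and 25.7% lower. The median log2 fold change was 0.43 over the S-phase members and 0.68 over the mitotic members, against -0.04 over all tested genes. By library, 14 of 19 S-phase and 16 of 21 mitotic members had every day 14 value above every day 9 value, as had 33.6% of all tested genes, and 1 of each group had them below, as had 35.7%.

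Among the enzymes that make DNA precursors, Rrm2, the regulatory subunit of ribonucleotide reductase, stood at 176 and 183 CPM on day 14, against 69.6, 50.7 and 70.1 CPM on day 9. It had the largest rise of the S-phase group, with a log2 fold change of 1.501 ± 0.14 (SE, adjusted p = 4.35e-05, edgeR). Tyms, thymidylate synthase, stood at 170 and 164 CPM, against 87.4, 75.8 and 97.1 CPM (log2 0.95 ± 0.11, adjusted p = 0.000174). The ranges of the days did not overlap for either gene. Tk1, thymidine kinase, was at 112 and 112 CPM, against 93.6, 67.8 and 96.5 CPM, and was not called (adjusted p = 0.0548).

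All 6 MCM helicase genes rose, with log2 fold changes from 0.37 (Mcm7) to 0.72 (Mcm6). Mcm6 stood at 524 and 522 CPM on day 14, against 324, 264 and 363 CPM on day 9 (adjusted p = 0.00144). Mcm2 stood at 255 and 246 CPM, against 197, 167 and 196 CPM (log2 0.43 ± 0.10, adjusted p = 0.00641). The loader Cdc6, the helicase partner Gins2, Rrm1 and the factor E2f1 rose as well, by 0.60, 0.41, 0.49 and 0.43 on the log2 scale. The clamp gene Pcna behaved otherwise: it stood at 276 and 286 CPM, inside the day 9 values of 326, 268 and 342 CPM. Ccne1, whose cyclin E drives entry into S phase, was at 20.03 and 18.6 CPM, against 20.1, 11.9 and 16.7 CPM, and was not called. Cdt1, Uhrf1, E2f2 and Ccne2 were not called either, with log2 values from -0.09 to 0.65. With the first day 14 library left out, 3 S-phase members were called higher in place of 12, and with the second left out 7. Without day 9 replicate 2, 1 S-phase and 2 mitotic genes were called lower.

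Of the mitotic genes the largest rises were in the chromosomal passenger and ubiquitin genes. Birc5, which encodes survivin, stood at 197 and 196 CPM on day 14, against 74.3, 65.5 and 83.1 CPM on day 9 (log2 1.40 ± 0.11, adjusted p = 1.26e-05). Ube2c, the ubiquitin-conjugating enzyme of the anaphase-promoting complex, stood at 270 and 257 CPM, against 96.0, 105 and 108 CPM (log2 1.35 ± 0.11, adjusted p = 1.56e-05). Aurkb, the passenger complex kinase, stood at 141 and 142 CPM, against 63.2, 45.5 and 62.8 CPM (log2 1.31 ± 0.15, adjusted p = 0.00011). In all 3 genes the day 14 values were over 2 times the mean of day 9.

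The entry regulators moved with them. Cdk1 stood at 175 and 163 CPM, against 82.3, 61.9 and 88.7 CPM (log2 1.12 ± 0.14, adjusted p = 0.000196). Ccnb1, its cyclin B1 partner, stood at 209 and 206 CPM, against 104, 87.6 and 111 CPM (log2 1.04 ± 0.11, adjusted p = 8.67e-05). Plk1, a kinase of the spindle and of mitotic entry, stood at 124 and 114 CPM, against 73.0, 69.9 and 77.4 CPM (log2 0.70 ± 0.14, adjusted p = 0.00279). Ccna2, Ccnb2, Cdc20, Aurka, Cenpa, Prc1 and Nusap1 also rose, by 0.62 to 0.98 on the log2 scale.

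Mki67, the gene of the proliferation antigen Ki-67, went the other way. It stood at 331 and 331 CPM on day 14, against 1019.5, 818 and 1045 CPM on day 9, a fall of 2.90-fold (log2 -1.54 ± 0.17, adjusted p = 0.000115). It was the only one of the 40 genes called lower at that time. Top2a, the topoisomerase that separates sister chromatids, was at 449 and 514 CPM, against 324, 236 and 432 CPM (log2 0.54 ± 0.21), and was not called (adjusted p = 0.0587). Bub1, Bub1b, Tpx2, Cenpf, Kif11 and Kif23 were not called, with log2 values from -0.17 to 0.32. Within the mitotic group the day 14 change ran with genomic length, as it did over all genes: the median was 1.04 over the 7 members in the shortest of those groups and 0.09 over the 9 members in the third, and no member lay in the longest. The 10 S-phase members in the second had a median of 0.43, the 4 in the third 0.60. The part of length in these changes was not tested.

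Other genes of the same processes, listed by function, also gave calls at day 14, where 25.4% of all tested genes were called higher and 25.7% lower. Of 46 further replication genes 27 rose and 2 fell, led by Asf1b, a histone chaperone (log2 1.37 ± 0.13), Rpa3, a subunit of the single-strand binding complex (1.37 ± 0.13), and Tipin of the fork protection complex (1.15 ± 0.12). Of 50 further mitosis genes 22 rose and 5 fell. Cks1b, a small partner of cyclin-dependent kinases, rose (1.63 ± 0.10), while the mitotic kinesins Kif14 (-2.63 ± 0.18) and Kifc1 (-2.49 ± 0.15) fell. Of 42 tested replication-dependent histone genes 15 rose and none fell. Hist1h4d stood at 38.1 and 28.3 CPM on day 14, against 0.517, 0.853 and 0.677 CPM on day 9. Messages of these histone genes mostly lack a poly(A) tail, so their recovery depends on how a library is made, and the labels name a library kit for only 1 of the 8 libraries, the second of day 14.

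The regulators of the 2 programmes did not move as one. Of 20 cell cycle transcription factors and pocket proteins 9 rose and 1 fell at day 14, where 25.4% of all tested genes were called higher and 25.7% lower. The one that fell was Nfya, a subunit of the CCAAT-binding factor NF-Y, at 7.39 and 8.31 CPM, against 71.2, 63.7 and 73.6 CPM (log2 -3.15 ± 0.11, adjusted p = 5.44e-07), while its partner Nfyb rose (0.90 ± 0.10), as did the E2F partner Tfdp1 (0.86 ± 0.10). Among 10 genes of G1 cyclins and their kinases and of Myc, 6 rose and 2 fell, with Ccnd1, cyclin D1, at -1.89 ± 0.14. Of 7 inhibitors of cyclin-dependent kinases, Cdkn1b fell most (-2.71 ± 0.12), Cdkn1a (-0.58 ± 0.17) and Cdkn2a (-2.64 ± 0.72) fell, and Cdkn2c rose (0.70 ± 0.21). Cdkn2a had 0.0930 and 0 CPM on day 14, against 0.387, 0.284 and 0.290 CPM on day 9, so its fold rests on very few reads.

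At day 21 the 2 groups of members parted. Wider lists parted less, with a median log2 fold change of 0.10 over 50 other mitosis genes and 0.02 over 46 other replication genes. Of the S-phase members 1 rose and 2 fell against day 9, and of the mitotic members 7 rose and 1 fell, where 7.46% of all tested genes were called higher and 12.8% lower. The median log2 fold change was -0.04 over the S-phase members and 0.38 over the mitotic members, against -0.01 over all genes. Of the S-phase members 2 had both day 21 values above all day 9 values, and of the mitotic members 13 had, beside 24.7% of all genes. Both lay below in 2 S-phase genes and 1 mitotic gene, beside 28.9% of all genes. The number of all genes called higher also moved with the fit, from 1096 in the main one. It was 2827 with scaling by library size, 1521 with DESeq2 and 1329 with its size factors in edgeR. With only the libraries of days 9 and 21 it was 1184, and without day 9 replicate 1 it was 611. The count of mitotic genes depended on the fit: 14 rose with scaling by library size, 12 with DESeq2 and 11 with its size factors in edgeR, while 4 rose when only the libraries of days 9 and 21 entered it, 3 without day 9 replicate 1, 4 without either day 14 library and 2 without day 21 replicate 2. The S-phase rise was lost without day 21 replicate 2, and 1 S-phase fall in place of 2 remained when any library of days 9 to 21 but day 9 replicate 2 was left out.

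Plk1 led the mitotic rises at day 21, at 117 and 166 CPM, against 73.0, 69.9 and 77.4 CPM on day 9 (log2 0.95 ± 0.14, adjusted p = 0.00196). Top2a stood at 596 and 531 CPM, against 324, 236 and 432 CPM (log2 0.77 ± 0.21, adjusted p = 0.034). Ube2c stood at 144 and 180 CPM, against 96.0, 105 and 108 CPM (log2 0.65 ± 0.11, adjusted p = 0.0039). In each of these the day 21 values lay above all values of day 9. Aurkb (0.62), Prc1, which bundles midzone microtubules (0.55), Cdk1 (0.48) and Kif23, a kinesin of cytokinesis (0.38), rose less. The calls of Top2a, Prc1 and Cdk1 were lost when the day 14 libraries left the fit. Mki67 was at 1114 and 1621 CPM, against 1019.5, 818 and 1045 CPM, and was not called (log2 0.51 ± 0.16, adjusted p = 0.0581). Birc5, at 79.1 and 88.1 CPM, against 74.3, 65.5 and 83.1 CPM, was not called.

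The single S-phase rise at day 21 was E2f2, a transcription factor of the E2F family, at 67.3 and 93.2 CPM, against 47.2, 32.0 and 46.6 CPM (log2 0.94 ± 0.19, adjusted p = 0.0118). Both day 21 values were above all of day 9. Pcna fell 2.17-fold, to 140 and 147 CPM, against 326, 268 and 342 CPM (log2 -1.12 ± 0.11, adjusted p = 0.000278). Gins2 fell by 0.42 on the log2 scale, at 21.4 and 21.5 CPM, against 30.01, 25.2 and 31.04 CPM (adjusted p = 0.0446), a call that was lost in 13 of the alternative settings. Mcm2 (-0.17 ± 0.10), Rrm2 (0.35 ± 0.14) and Ccne1 (-0.01 ± 0.21) were not called. Ccnb1 was the mitotic gene that fell, to 49.7 and 57.2 CPM, against 104, 87.6 and 111 CPM (log2 -0.92 ± 0.12, adjusted p = 0.00105).

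Pcna and Ccnb1 share a property with Ccnb2 and Tyms. RefSeq names pseudogenes of Pcna, Ccnb1, Ccnb2 and Tyms, and reads that fit a gene and its copy can be split or dropped in counting, so the levels of these 4 genes are uncertain. Of 303 tested genes with a pseudogene so named, 64.0% were called lower at day 21 and 53.1% at day 30, against 11.7% and 5.64% of the other 14389 genes. Without genes of ribosomal proteins, which are many among them, the shares were 56.7% and 46.2% of 240 genes. At day 14, 18.8% of those 240 were called lower and 52.9% higher. With the 4 members left out of the count, and no new fit, 1 S-phase gene (Gins2) and no mitotic gene fell at day 21. None of the 7 mitotic rises was among the 4, so that count could not change. Ccnb2 and Tyms, which have such copies too, were not called at day 21 (log2 0.04 ± 0.09 and -0.16 ± 0.12). The part of the copies in the falls of Pcna and Ccnb1 was not tested.

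**Figure D2:**
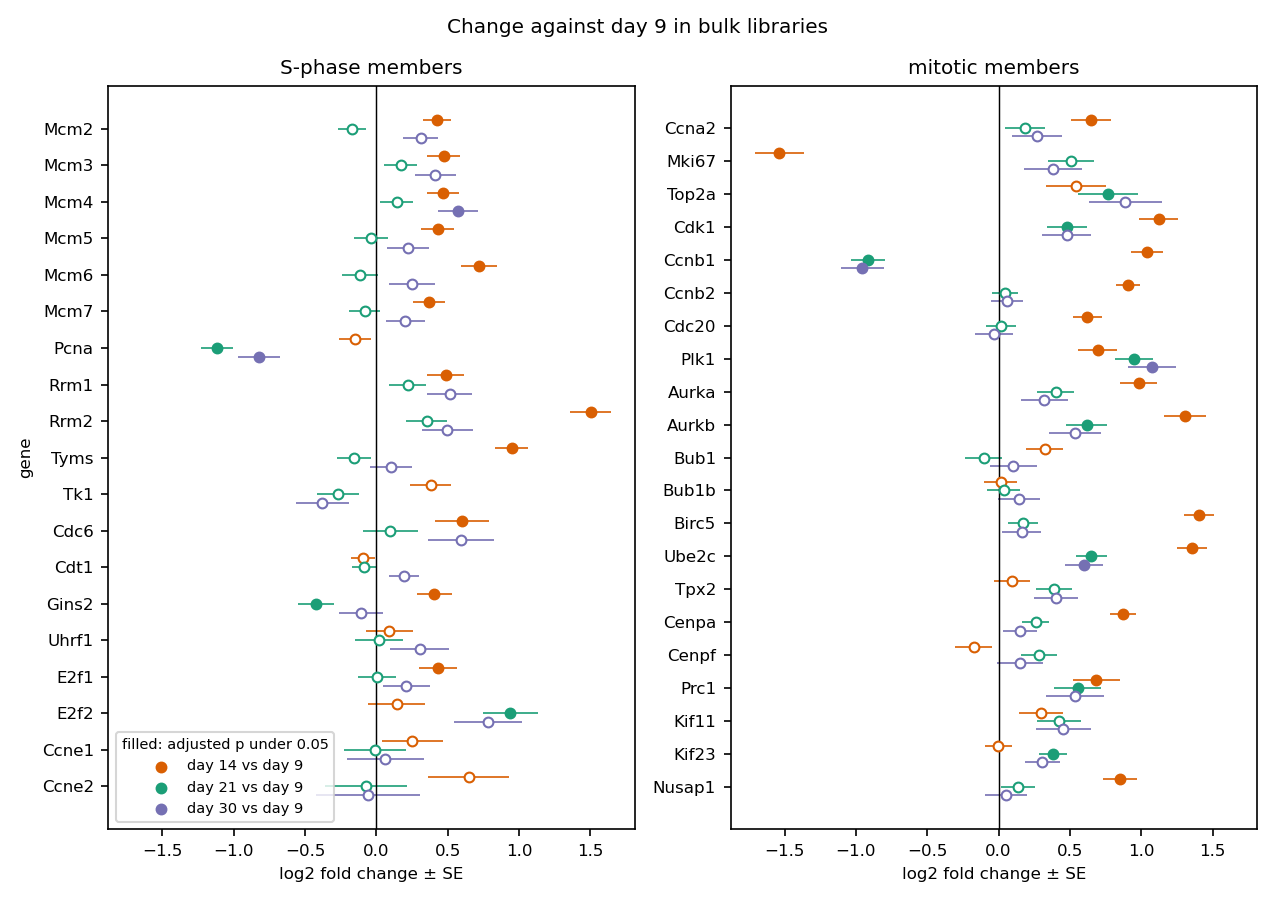
Log2 fold change against day 9 with its standard error for each S-phase (left) and mitotic (right) member at day 14, day 21 and day 30; filled points passed an adjusted p of 0.05 in edgeR. The orange day 14 points are filled for 12 S-phase and 14 mitotic genes, and the green day 21 points lie right of 0 for 19 of 21 mitotic but 8 of 19 S-phase genes.

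Day 30, with 1 library tested on the spread of the other days, had Plk1 and Ube2c as its mitotic rises. Of the S-phase members 1 rose and 1 fell, and of the mitotic members 2 rose and 1 fell, where 10.3% of all tested genes were called, 3.67% higher and 6.62% lower. The day 30 value lay above all day 9 values in 13 S-phase and 16 mitotic genes, beside 36.1% of all genes, and below them in 2 and 1, beside another 36.1%. Plk1 stood at 155 CPM (log2 1.07 ± 0.16, adjusted p = 0.0049) and Ube2c at 156 CPM (0.60 ± 0.13, adjusted p = 0.0241), above all 3 day 9 values in both. Mcm4 stood at 217 CPM, against 155, 124 and 160 CPM on day 9 (0.57 ± 0.14, adjusted p = 0.0375). Pcna was at 176 CPM and Ccnb1 at 52.1 CPM, 1.77-fold and 1.94-fold lower than at day 9 (adjusted p = 0.00986 and 0.00592). Top2a, at 612 CPM, and Mki67, at 1251 CPM, lay above all day 9 values without passing the test, as did Cdk1 at 108 CPM. E2f2, at 72.1 CPM, was not called (log2 0.78 ± 0.24, adjusted p = 0.0761). With scaling by library size the median log2 fold change was 0.43 over the S-phase and 0.51 over the mitotic members, against 0.20 over all genes. With DESeq2 these medians were 0.23 and 0.32, against 0.002 over all genes. The Mcm4 call was lost without day 9 replicate 1 or either day 14 library, and the Ube2c call without day 9 replicate 1 or day 14 replicate 2. Without day 9 replicate 2, 2 S-phase genes fell, and without either day 21 library 2 rose. The median log2 fold change was 0.22 over the S-phase and 0.31 over the mitotic members, against -0.01 over all genes.

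Set against day 14, day 21 was lower in both groups. Of the S-phase members 1 rose and 10 fell, and of the mitotic members 3 rose and 12 fell, where 58.6% of all tested genes were called, 29.5% higher and 29.1% lower. The medians were -0.47 and -0.46, against 0.06 over all genes. The largest S-phase falls were of Rrm2 (-1.15 ± 0.16), Tyms (-1.10 ± 0.13) and Pcna (-0.96 ± 0.12), and the one S-phase rise was of E2f2 (0.80 ± 0.22). Mki67 rose 4.13-fold to 1114 and 1621 CPM on day 21, against 331 and 331 CPM on day 14 (adjusted p = 2.72e-05), and Cenpf, a kinetochore protein (0.46 ± 0.14), and Kif23 (0.38 ± 0.11) rose. Ccnb1 (-1.96 ± 0.13), Birc5 (-1.23 ± 0.12) and Ccnb2 (-0.86 ± 0.10) fell most. The E2f2 call was lost without day 14 replicate 1 or day 21 replicate 2. Of the mitotic genes 1 rose without day 14 replicate 2 or without day 21 replicate 2, and 5 rose without day 21 replicate 1. This comparison and that of day 14 with day 9 share the day 14 libraries.

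The calls of all 40 genes were then followed over the comparisons with day 9, which share the day 9 libraries. Of these, 10 S-phase and 7 mitotic genes rose at day 14 and were not called later. At day 14, 25.4% of all tested genes were called higher and 25.7% lower, and at day 21 7.46% and 12.8%. Shares of all genes by pattern over the days were not computed. Plk1 and Ube2c rose at all 3 times. Aurkb, Cdk1 and Prc1 rose at days 14 and 21, and Top2a, Kif23 and E2f2 at day 21 alone among the 3. Mcm4 rose at days 14 and 30. Gins2 rose at day 14 and fell at day 21, and Ccnb1 rose at day 14 and fell at days 21 and 30. Pcna fell at days 21 and 30, and Mki67 fell at day 14 alone. For 5 genes of each group no call was made at any time: Cdt1, Tk1, Uhrf1, Ccne1 and Ccne2 of S phase, and Bub1, Bub1b, Tpx2, Cenpf and Kif11 of mitosis.

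The balance of the groups was followed within each library as the mean log2 CPM of the 19 S-phase genes minus that of the 21 mitotic genes, from which scaling between libraries cancels. It was -0.57 and -0.54 at day 14, -0.73 and -0.77 at day 21 and -0.52 at day 30, against -0.35, -0.51 and -0.45 at day 9. Both day 21 libraries lay below every other library. The mean difference from day 9 was -0.12 at day 14, -0.32 at day 21 and -0.08 at day 30, beside an SD of 0.08 over the 3 day 9 libraries. The sign at day 14 depended on the summary: it was 0.16 with the median over genes. As summed CPM, the S-phase genes stood at 3226 CPM on day 14, 2247 CPM on day 21 and 2744 CPM on day 30, against 2391 ± 306 CPM on day 9 (SD, n = 3), and the mitotic genes at 3895, 4267 and 4196 CPM, against 3219.9 ± 408 CPM. No p is given for this score, since its genes were chosen with earlier results known.

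**Figure D3:**
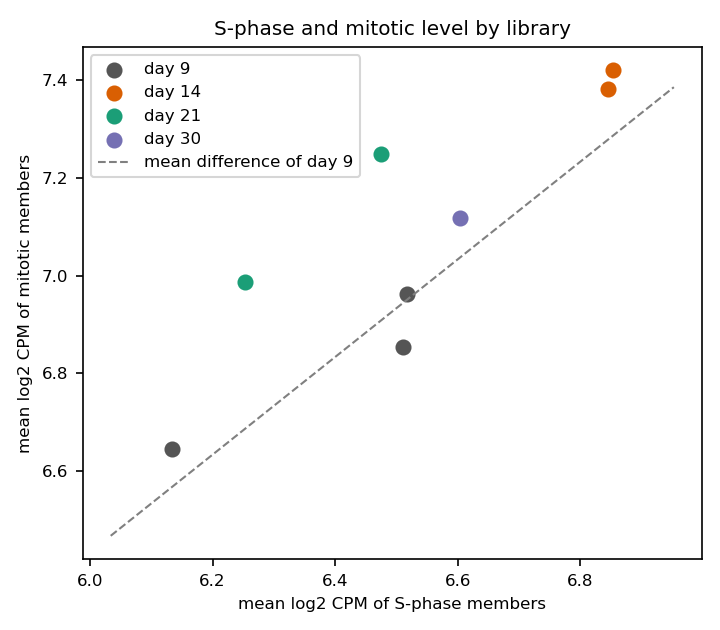
Mean log2 CPM of the 21 mitotic genes against that of the 19 S-phase genes, 1 point per bulk library; the dashed line has the mean S-phase minus mitotic difference of the 3 day 9 libraries. Both day 21 points lie farthest above the line, at differences of -0.73 and -0.77.

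Of the other replication genes at day 21, 2 of 46 rose and 3 fell against day 9, and of the other mitosis genes 6 of 50 rose and 4 fell. These are shares of 4.35% and 6.52%, and of 12% and 8%, beside 7.46% of all tested genes called higher and 12.8% lower. Dnmt1, the maintenance DNA methyltransferase, rose (0.57 ± 0.14), and Orc4 (-0.74 ± 0.12) and Orc5 (-0.58 ± 0.08) of the origin recognition complex fell. Cks2 fell to 19.4 and 22.3 CPM, against 93.6, 86.5 and 91.5 CPM (-2.12 ± 0.09), and the securin gene Pttg1 fell (-1.05 ± 0.14), while the phosphatase gene Cdc25b rose (0.62 ± 0.13). Among the 20 transcription factors and pocket proteins Nfyc (-1.27 ± 0.09), Lin52 (-0.90 ± 0.16) and Tfdp1 (-0.57 ± 0.10) fell and 3 genes rose. Of the G1 list Ccnd2, cyclin D2, rose (0.80 ± 0.12) and Cdk7 fell (-0.40 ± 0.10). Of the histone genes none rose and 1 fell. At day 30, with 1 library, the median log2 fold change was 0.23 over the other replication genes and 0.14 over the other mitosis genes. It was -0.01 over all genes. Chaf1b, Dnmt1 and Pola2 stood higher than at day 9 by 0.75, 0.70 and 0.40.

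Of 7 inhibitors of cyclin-dependent kinases, 4 rose at day 21 and none fell, where 7.46% of all tested genes were called higher: Cdkn2a (5.17 ± 0.38), Cdkn2b (1.60 ± 0.17), Cdkn1c (0.97 ± 0.23) and Cdkn2c (0.85 ± 0.20). Cdkn2a, a Polycomb target whose products arrest cells, stood at 11.9 and 11.6 CPM on day 21 and 8.08 CPM on day 30, against 0.387, 0.284 and 0.290 CPM on day 9. It was the one inhibitor called at day 30 (4.63 ± 0.42). Cdkn1b, Cdkn1a and Cdkn2d were not called at day 21, with log2 values of -0.29, 0.33 and -1.02.

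The single-cell libraries gave 3828 cells at day 7, 4685 at day 12 and 2768 at day 16, with medians of 7957, 7560 and 11905 unique molecular identifiers (UMIs). Each day is 1 library, so no difference has a replicate check and no test was made. Libraries shared 1 to 4 cell barcodes. The day 12 library stood apart in other genes too: the stem cell gene Olfm4 was at 10.1 CPM there, against 241 CPM on day 7, and the summed stromal and endothelial markers were at 689 CPM, against 101 CPM, with Col1a2, Col3a1, Lum and Kdr at 0 in both. Shares and sums could be raised by free RNA, read from barcodes under 100 UMIs. These held S-phase genes at 1185, 1126 and 1177 CPM at days 7, 12 and 16, against 1106, 950 and 1178 CPM in cells. They held mitotic genes at 1584, 1199.5 and 1487 CPM, against 1814, 1074 and 1892 CPM in cells. At day 12 both groups stood higher in these barcodes than in cells.

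At day 12 the mitotic genes were low. Their summed level was 1074 CPM (95% exact Poisson interval 1064 to 1084, counting error only), against 1814 CPM (1799.6 to 1828) at day 7, a ratio of 0.592. All 21 lay below day 7 and 14 were past a fold of 1.5, where 9.07% of 12879 genes with at least 50 UMIs were that much lower. Of the S-phase genes 3 were past it and none was higher, and their summed level was 950 CPM on day 12, against 1106 CPM on day 7. The median ratio was 0.607 over the mitotic and 0.889 over the S-phase genes, against 1.08 over all genes. The lowest ratios were of the checkpoint kinase gene Bub1b (0.291, at 7.49 against 25.7 CPM), Cenpf (0.420), Mki67 (0.435, at 81.4 against 187 CPM), Mcm3 (0.439) and Bub1 (0.451). Pcna, at 172 CPM against 157 CPM, was not lower. The bulk rise at day 14 and this low level at day 12 come from different assays and days and were not compared by a test.

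At day 16 both sums were near those of day 7. The mitotic sum was 1892 CPM (1878 to 1907) and the S-phase sum 1178 CPM (1167 to 1189), 1.04 and 1.06 times day 7. The S-phase genes past a fold of 1.5 were E2f2, at 20.9 against 5.58 CPM (3.74 times), Tk1 and Rrm2 (both 1.83 times) on the high side and Rrm1 on the low side, at 45.3 against 85.8 CPM (0.528). The mitotic ones were Kif23, at 39.0 against 15.6 CPM (2.499 times), and Plk1, at 25.0 against 49.4 CPM (0.507). Beside these, 12.8% of all genes were that much higher and 21.3% that much lower. Plk1, which stood high in the bulk libraries of days 21 and 30, was thus low in the day 16 cells, while E2f2 and Kif23 stood high in both. Pcna and Ccnb1, low in bulk at days 21 and 30, were at 156 CPM against 157 CPM and at 50.9 CPM against 58.7 CPM.

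**Figure D4:**
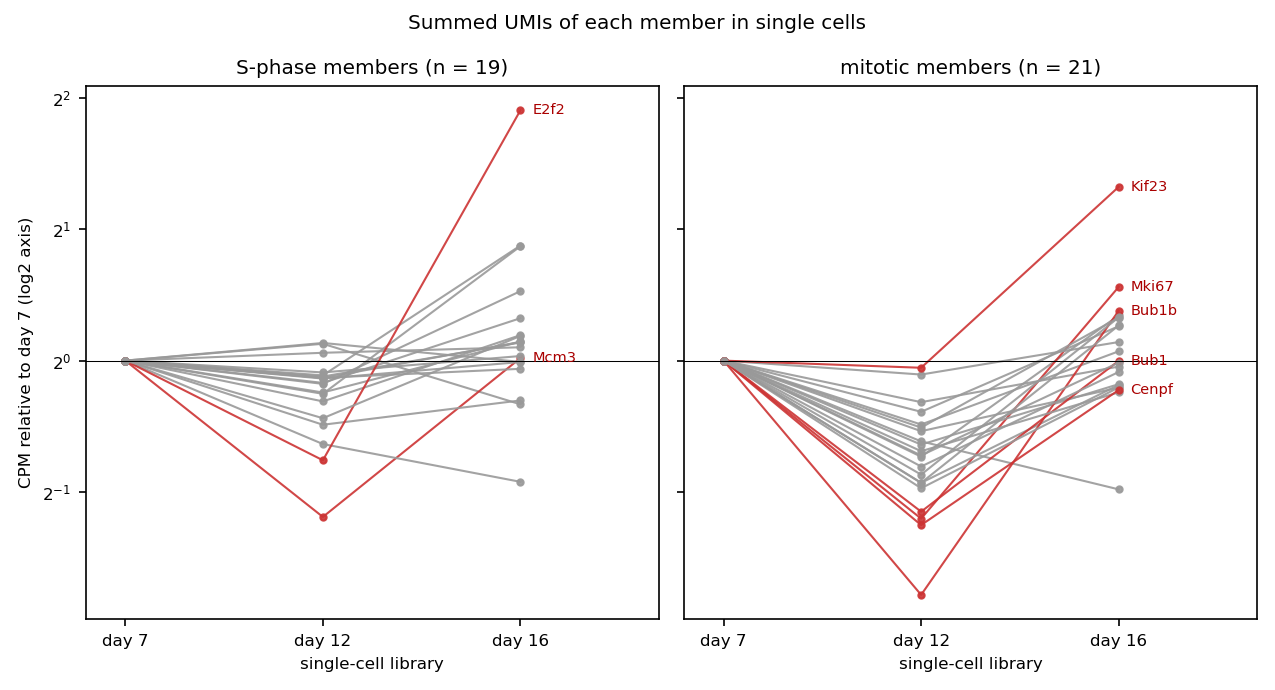
CPM of each member in the summed UMIs of a library divided by its day 7 value, on a log2 axis, for S-phase (left) and mitotic (right) genes; genes that lie 2-fold or more from day 7 on some day are in red. Every mitotic line is below 1 at day 12, and E2f2 and Kif23 are highest at day 16.

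Compared with day 12, 6 S-phase and 14 mitotic genes were higher at day 16 past a fold of 1.5 and none was lower, where 15.6% of all genes were higher and 32.5% lower. The largest ratios were 6.33 for E2f2, 4.47 for Bub1b and 3.39 for Mki67.

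Cells were then sorted by what they held, after thinning each to 2000 UMIs. At least 2 S-phase UMIs were found in 42.0% of cells at day 7 (95% Clopper-Pearson 40.4% to 43.6%), 28.9% at day 12 (27.6% to 30.2%) and 47.6% at day 16 (45.7% to 49.5%). At least 2 mitotic UMIs were found in 30.6%, 16.6% and 38.5%. In tuft-marker cells, a differentiated type taken as out of cycle, the S-phase shares were 27.5% of 40, 28.6% of 21 and 30.2% of 53 cells, and the mitotic counts 6, 4 and 14 of the same cells, at median depths of 6466, 6700 and 8214 UMIs. The day 12 shares of all cells were no higher than in the tuft-marker cells beyond counting error, so no excess over them was detectable at this bar with 21 such cells. In enteroendocrine-marker cells the S-phase shares were 21.5% of 65, 0 of 16 and 21.2% of 99 cells, and the mitotic shares 15.4%, 0 of 16 and 11.1%. With a bar of at least 5 S-phase UMIs the shares of all cells were 13.7%, 9.97% and 16.3%, against 1 of 40, 0 of 21 and 5 of 53 tuft-marker cells. With a bar of at least 5 mitotic UMIs the shares of all cells were 20.2%, 9.39% and 24.6%, against 10.0%, 9.52% and 9.43% of tuft-marker cells.

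**Figure D5:**
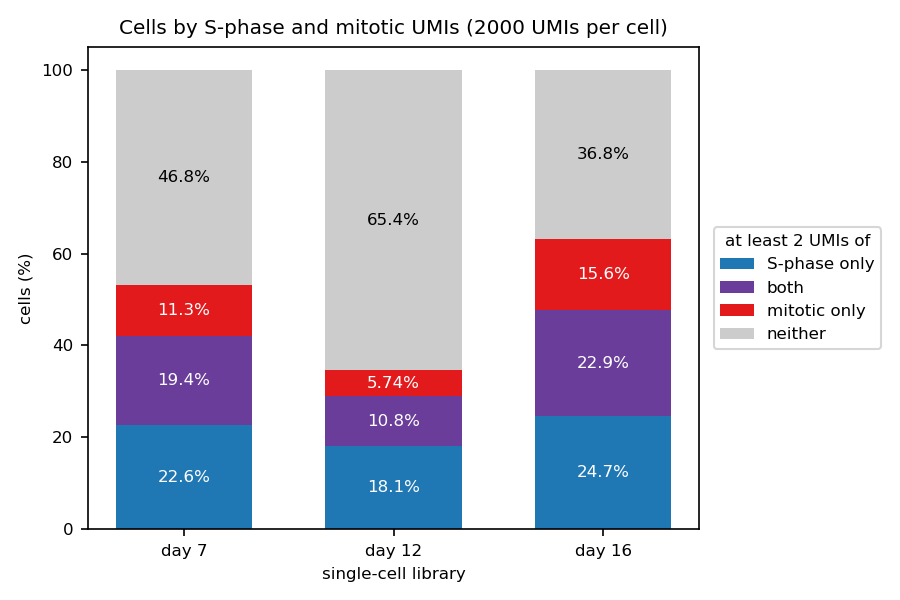
Percent of cells of each single-cell library, thinned to 2000 UMIs, that held at least 2 UMIs of S-phase genes only, of both groups, of mitotic genes only or of neither. The neither class was 46.8% at day 7, 65.4% at day 12 and 36.8% at day 16.

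Cells that passed for one programme passed for the other more often than the remaining cells did, although cells with both, 741 at day 7, 507 at day 12 and 634 at day 16, were fewer than those with S-phase UMIs only and mitotic UMIs only added together. Of cells with S-phase UMIs, 46.1% at day 7, 37.5% at day 12 and 48.1% at day 16 also passed for mitotic genes, against 19.4%, 8.07% and 29.7% of cells without. Many cells lie at the bar, since 1466 of 3828 day 7 cells held 1 or 2 S-phase UMIs, so the classes are ranges and not cell types. Cells in both classes were also the deepest before thinning, at a median of 11956 UMIs at day 7, against 6375 in cells with neither.

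Genes not used to form the classes differed between them in every library. Ezh2, the catalytic partner of EED, was at 188 CPM on day 7, 193 at day 12 and 181 at day 16 in cells with both programmes, against 73.6, 84.9 and 49.2 CPM in cells with neither. Other replication genes summed to 2972, 3846 and 3198 CPM, against 845, 815 and 810 CPM. Other mitosis genes summed to 4341, 4405 and 3930.3 CPM, against 394, 368 and 342 CPM, so at day 12 too the classes differed in genes that did not form them. Paneth cell markers were the reverse, at 507, 674 and 515 CPM with both, against 13330.4, 1959 and 18174 CPM with neither, and goblet cell markers at day 16 were at 1528 CPM, against 9777 CPM. Summed stem cell markers were at 1636 CPM at day 7, 1376 at day 12 and 1304 at day 16 with both programmes, against 2286, 1833 and 1417 CPM with neither. Within that list Lgr5 was lower with both, at 134, 144 and 35.7 CPM, against 255, 273 and 53.1 CPM, while Olfm4 was at 243, 21.9 and 411 CPM, against 226, 3.89 and 418 CPM. Cdkn1a at day 16 was at 75.3 CPM with both and 204 CPM with neither. Cdkn1b went the other way there, at 59.2 CPM with both and 45.8 CPM with neither. Cdkn2a, with no UMI at day 7, was at 15.2 CPM with both and 59.5 CPM with neither at day 16. Of 371 day 16 cells with a Cdkn2a UMI, 34.5% passed for S-phase and 32.9% for mitotic genes, against 49.6% and 39.3% of the 2397 cells without one.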

How the data were processed

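Bulk values were whole-number counts per gene, and single-cell values UMI counts per gene and barcode, both as deposited by the authors and not normalized. The tools listed for the series, per the submitters' processing notes, include STAR 2.5.3a, Cell Ranger 3.0.2 and DESeq2, with mm9 as mouse build. The gene counter, its annotation and its strand setting are not stated there. Of 24014 genes, 14692 passed filterByExpr. One model with a mean per day over 8 libraries was fitted in edgeR 4.0.16 (R 4.3.3): TMM, quasi-likelihood F test, Benjamini-Hochberg adjustment over all tested genes, threshold 0.05. Day 30, with 1 library, borrows the spread of the others. Each SE comes from the log2 fold change and its F value, and a ± value on CPM is an SD. Nothing in the labels but "biological replicate" says that libraries came from separate mice. Libraries of one day differed by more than counting noise. The chi-square for each degree of freedom ran from 9.35 in the day 14 pair to 85.1 in the day 21 pair. Of the per-sample columns, 1 has a name that fits none of the labels and stayed out of every step.

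A barcode counted as a cell if its UMIs passed 10% of the 99th percentile of the 5000 largest barcodes, if it held 500 genes or more and if mitochondrial UMIs made up no more than 20%. This left 3828 of 4032, 4685 of 4894 and 2768 of 3134. Doublets were not removed. A tuft-marker or enteroendocrine-marker cell held UMIs of 3 or more markers of that type. Cells were thinned to 2000 UMIs with a fixed seed, and intervals cover counting error only. The fit was tested on simulated data.

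Promoter sequences are from RefSeq, GRCm38.p6. Genomic length was known for 94.2% of tested genes, all 40 members included. The members and lists were chosen with earlier results of these data known. Named genes follow a rule: the 3 largest rises and falls per group and comparison, a set of 10 markers, up to 3 genes by p from each other list and the kinase inhibitors. The genes of the classes of cells, Nfyb, Tfdp1 and other repeats across comparisons, the pseudogene and the length splits were chosen after values were seen. Alternatives were other scalings, tests, filters, samples and member groupings.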

Additional observations from a re-analysis of the deposited data

How the results depend on the processing

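Of 963 recomputed calls of single members, 860 kept their direction and side of the threshold, 103 lost the call and none reversed, and 39 of 68 called changes held under every setting. Replicate numbers do not pair the libraries (correlations of deviations between same-numbered libraries from -0.02 to 0.05): with the replicate block, S-phase falls at day 21 against day 9 numbered 1 and S-phase rises at day 30 numbered 0. With library-size scaling the median of all genes moved to 0.21 (day 21) and 0.20 (day 30) against day 9, and to 0.25 for day 21 against day 14, so calls shift upwards: at day 21 against day 9, 4 S-phase and 14 mitotic genes rose and 1 S-phase gene fell, at day 30, 7 and 8 rose, and at day 21 against day 14, 5 mitotic genes rose. By that scaling 2827 of all genes were higher and 1010 lower at day 21 against day 9, in place of 1096 and 1878, and 1729 and 648 at day 30, in place of 539 and 972. DESeq2 gave 2 S-phase and 12 mitotic rises and 1 S-phase fall at day 21, and 5 and 5 rises at day 30. Its size factors in edgeR gave 11 mitotic rises and 1 S-phase fall at day 21. There 1329 of all genes were higher and 1617 lower, and with DESeq2 itself 1521 and 1809. Without the filter 1 S-phase gene fell at day 21 and 2 rose at day 30. With only the days compared, and without the day 14 libraries, 4 mitotic genes rose and 1 S-phase gene fell at day 21, and 0 S-phase genes rose at day 30. Without the members that have a RefSeq pseudogene (added after the values were seen), 1 S-phase and 0 mitotic genes fell at day 21 and 0 of either at day 30. The members with a pseudogene were only left out of the count, with no new fit. Causes were not tested beyond the fewer samples or genes of a setting.

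With 1 library left out in turn, S-phase rises at day 14 ranged from 3 to 12 and falls from 0 to 1, and mitotic falls from 1 to 2. At day 21 S-phase rises ranged from 0 to 1, S-phase falls from 1 to 3 and mitotic rises from 2 to 8. At day 30 S-phase rises ranged from 0 to 2, S-phase falls from 1 to 2 and mitotic rises from 1 to 3. At day 21 against day 14 S-phase rises ranged from 0 to 1 and mitotic rises from 1 to 5. The S-phase minus mitotic level at day 14 against day 9 turned to 0.16 by the median and 0.16 by summed CPM. By summed CPM it was -0.49 at day 21, -0.18 at day 30 and -0.65 at day 21 against day 14, the last -0.57 by the median and -0.25 without the members that have a pseudogene.

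In single cells, the day 12 over day 7 ratio of the S-phase sum was 0.836 with double the UMI minimum, 0.801 with a mitochondrial maximum of 10%, 0.825 without the 5% of cells with most UMIs and 0.805 without mitochondrial and ribosomal UMIs, and that of the mitotic sum 0.571, 0.524, 0.476 and 0.555. The day 16 over day 7 S-phase ratio was 1.03 with double the minimum, 1.09 without the 5% and 1.12 without those UMIs. The mitotic one turned to 0.9998 with double the minimum and was 1.14 with the 10% maximum and 1.09 without those UMIs, so its direction is not settled. S-phase shares at days 7, 12 and 16 were 23.8%, 17.2% and 27.6% at 1000 UMIs, 66.2%, 53.3% and 70.3% with at least 1 UMI, 27.9%, 18.7% and 33.3% with 3 and 13.7%, 9.97% and 16.3% with 5. Mitotic shares were 23.4%, 12.8% and 29.3%, 43.1%, 27.9% and 52.3%, 25.8%, 12.8% and 31.8%, and 20.2%, 9.39% and 24.6%. With the 10% maximum the S-phase share at day 7 was 44.8% and the mitotic shares at days 7 and 16 were 34.9% and 45.5%. Without the 5% of cells the S-phase share at day 12 was 27.3% and the mitotic shares at days 7 and 12 were 28.8% and 13.98%. On the gene's strand alone, 61.1% of mitotic windows held a CCAAT box and 44.4% a CHR with it. Ccne1 and Ccne2 rest on 292 to 530 and 145 to 309 counts in a library, and whether depth bears on their calls was not tested.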
